A study of Mus musculus with 6 samples.

Results

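The comparison was of hearts from wild-type C57Bl6J mice that received a single 12 Gy fraction from a small animal microirradiator with hearts that received the sham procedure, each collected after 28 days. Its members were 4 of the 6 single-cell libraries of the series, 2 sham and 2 irradiated, chosen by their labels, and they held 20741 of the 32761 cells kept in the series. The labels describe the material as CD45+ cells of the heart, CD45 being the surface protein common to white blood cells. They do not give the age or sex of the mice, a batch, or whether libraries that share a label were from different mice, so p-values measure the spread between libraries, which may be technical. The other 2 libraries, irradiated hearts labelled STING KO, were not compared here. They entered the models for their spread, and with that also the filter on low counts and the scaling of libraries.

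Ionising radiation breaks DNA, and cells respond through the transcription factor p53, which switches on genes that halt division, repair damage or start cell death. Irradiated cells can also mount an interferon response, in which transcription factors such as IRF7 and the STAT proteins induce antiviral genes through a promoter sequence called the interferon-stimulated response element. The adult heart holds macrophages that maintain themselves and macrophages replenished from blood monocytes, along with lymphocytes and a dense capillary bed whose endothelial cells rarely divide.

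The droplet assay marks every captured transcript, at its 3' side, by cell and by molecule, and a unique molecular identifier (UMI) stands for 1 such transcript. Cells that had 200 genes or more, and mitochondrial genes for no more than 10% of UMIs, were divided by marker UMIs into 4 lineages. A cell was placed in the macrophage lineage with 10 or more UMIs of C1qa, C1qb and C1qc together (the subunits of complement C1q), in the T lineage with 2 or more of Cd3e, Cd3d and Cd3g, in the B lineage with 2 or more of Cd79a and Cd79b, and in the endothelial lineage with 2 or more of Pecam1 and Cdh5. Cells that met several rules were left out of all 4. This gave 8142 macrophage, 662 T, 2645 B and 1250 endothelial cells in the 4 libraries, while 2444 cells met several rules and 5598 met none. Between 95.7% and 100.0% of a lineage's cells had 2 or more UMIs of its 8 check genes in each of the 4 libraries. The rules did not use these genes. Of cells that did not meet the rule, 9.35% to 14.7% passed this check for T and 9.81% to 16.3% for endothelial cells. For macrophages it was 34.7% to 52.6% and for B cells 52.9% to 58.2%, so there the check separated the lineage less well. Ptprc, which encodes CD45, stood at 438 and 382 UMIs per 1000000 (CPM) of the macrophage sum in the sham libraries and at 53.2 and 126 CPM of the endothelial sum, and endothelial cells of the heart are not known as a CD45+ type.

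The libraries held 31650962 and 47017054 UMIs (sham) and 32967187 and 58813701 UMIs (12 Gy), and sham cells were shallower, with medians of 4517 and 4764 UMIs per kept cell against 6491 and 5667. Between 23.2% and 31.2% of the barcodes of these libraries exceeded the mitochondrial limit, and any 2 of these libraries shared at most 12 cell barcodes, 0.256% of the smaller one. Sham replicate 2 stood apart in neutrophil transcripts. Of its cells, 22.5% in the B lineage, 16% in the T lineage and 13.3% in the endothelial lineage had 20 or more UMIs of S100a8 and S100a9, the abundant calgranulin genes of neutrophils, against 2.87% to 11.7% in the other 3 libraries over those lineages. Irradiated replicate 2 stood apart in its B cells. Of those, 68.4% had an Xist UMI and no Y-linked UMI, against 27.2% to 39.6% in the other 3 libraries. Cells with Xist alone and cells with Y-linked UMIs alone were present in each of the libraries.

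**Figure D1:**
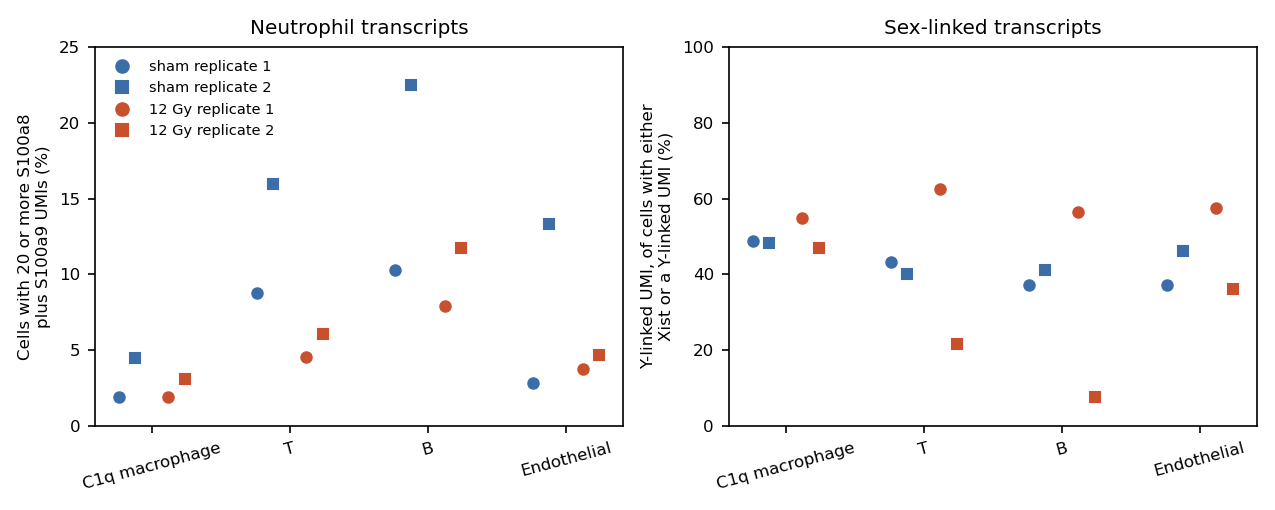
Left, the share of cells of each lineage with 20 or more UMIs of the neutrophil genes S100a8 and S100a9 (y axis, percent), 1 point per library; right, the share of cells with a Y-linked UMI among cells with either Xist or a Y-linked UMI but not both (y axis, percent). Blue points are sham and orange points 12 Gy libraries, circles replicate 1 and squares replicate 2; sham replicate 2 is the highest of the 4 on the left in each lineage, and irradiated replicate 2 is lowest on the right among B cells, at 7.59%.

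No lineage differed in abundance beyond the spread between libraries, and 2 libraries against 2 cannot give an exact two-sided permutation p below 0.33. Macrophages made up 43.9% and 36.7% of kept cells in the sham libraries and 43.9% and 35.8% in the irradiated ones. T cells made up 3.15% and 4.13% of sham and 3.12% and 2.34% of irradiated libraries, and endothelial cells 6.69% and 6.16% against 6.04% and 5.40%. Both irradiated libraries lay below both sham libraries for T and endothelial cells, by margins smaller than the gap between the sham libraries. B cells made up 10.4% and 11.7% of the sham libraries and 10.9% and 16.6% of the irradiated ones, the highest share being that of irradiated replicate 2. Shares among captured cells do not give cell numbers in the heart.

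**Figure D2:**
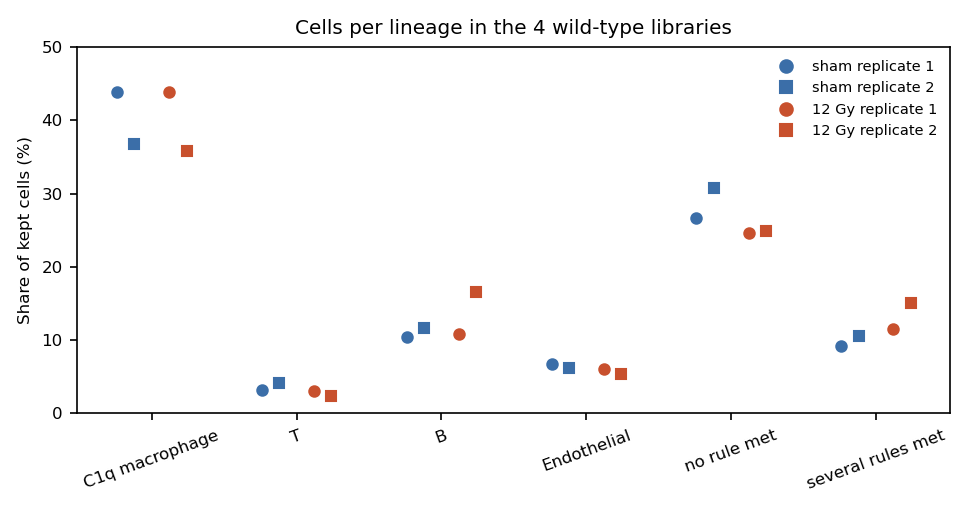
Share of kept cells (y axis, percent) in each of the 4 lineages, meeting no rule, or meeting several rules (x axis), 1 point per library, with sham in blue and 12 Gy in orange, circles for replicate 1 and squares for replicate 2. Macrophage shares overlap between the groups, and cells that met several rules are more frequent in both irradiated libraries (11.5% and 15.1%) than in both sham libraries (9.20% and 10.5%).

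The comparison of gene expression asked which genes answered 12 Gy in several lineages and which in 1. UMI counts were summed per library within a lineage, and each gene was tested by edgeR's quasi-likelihood test with Benjamini-Hochberg adjustment over all genes of that lineage; a gene was called at an adjusted p under 0.05. Folds are log2 ratios of irradiated over sham, given with their standard error (±, n = 2 libraries against 2). In macrophages 738 genes rose (5.64%) and 558 fell (4.26%) of 13088 tested, 9.9% in all, and in endothelial cells 315 rose (2.69%) and 216 fell (1.85%) of 11697, 4.54% in all. In T cells none of 7028 genes was called, with 575 at an unadjusted p under 0.05, and in B cells none of 10360, with 1562. DESeq2 called 10 genes in T cells and 51 in B cells. The typical standard error of a gene at 50 CPM or more was 0.08 in macrophages, 0.12 in endothelial cells, 0.17 in B cells and 0.22 in T cells on the log2 scale, so the lymphocyte comparisons were less precise.

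These counts changed with the libraries in the fit. Each fit without 1 library also had fewer residual degrees of freedom, so lost precision and the part of that library cannot be told apart. With the 4 wild-type libraries alone 866 macrophage and 135 endothelial genes were called. Without irradiated replicate 1 the macrophage count was 138, and without irradiated replicate 2, sham replicate 1, sham replicate 2 and knockout replicate 1 it was 431, 519, 713 and 861. The endothelial count was 170, 222 and 304 without irradiated replicate 1, sham replicate 1 and sham replicate 2, and 152 and 185 without knockout replicates 1 and 2. Without sham replicate 1, 98 genes were called in T cells and 257 in B cells. With a mitochondrial limit of 5%, which kept 389 and 344 sham and 396 and 341 irradiated macrophages, no macrophage gene was called, the smallest adjusted p among the named genes being 0.0754, while 259 endothelial genes were.

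Genes called in 2 lineages with the same sign numbered 120, which is 1.03% of the 11605 genes tested in 2 or more lineages, and the 2 lineages were macrophage and endothelial in each case. They were 90 genes that rose (0.776%) and 30 that fell (0.259%), and made up 9.26% of the macrophage calls and 22.6% of the endothelial calls. The fits of the lineages share their libraries and are not independent. Of the 90, 13 belonged to a list of p53 target genes, 6 to a list of interferon-stimulated genes and 0 to a list of cell cycle genes. The count fell to 11 without irradiated replicate 1, to 60 and 63 without sham replicate 2 and irradiated replicate 2, to 34 and 39 without knockout replicates 1 and 2, to 15 when cells meeting several rules were kept in each lineage, and to 0 with the 5% mitochondrial limit. Without sham replicate 1 it was 146, of which 24 rose and 122 fell, and 22 of the 146 were among the 120. With the replicate number as a replicate block it was 56, of which 50 were among the 120. In T cells 59 of the 73 shared risen genes that were tested had positive folds, with a median of 0.23, where 51.2% of all tested genes were positive; in B cells 70 of 81 did, with a median of 0.40, where 48.7% of all genes were positive. None of these was called in T or B cells.

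**Figure D3:**
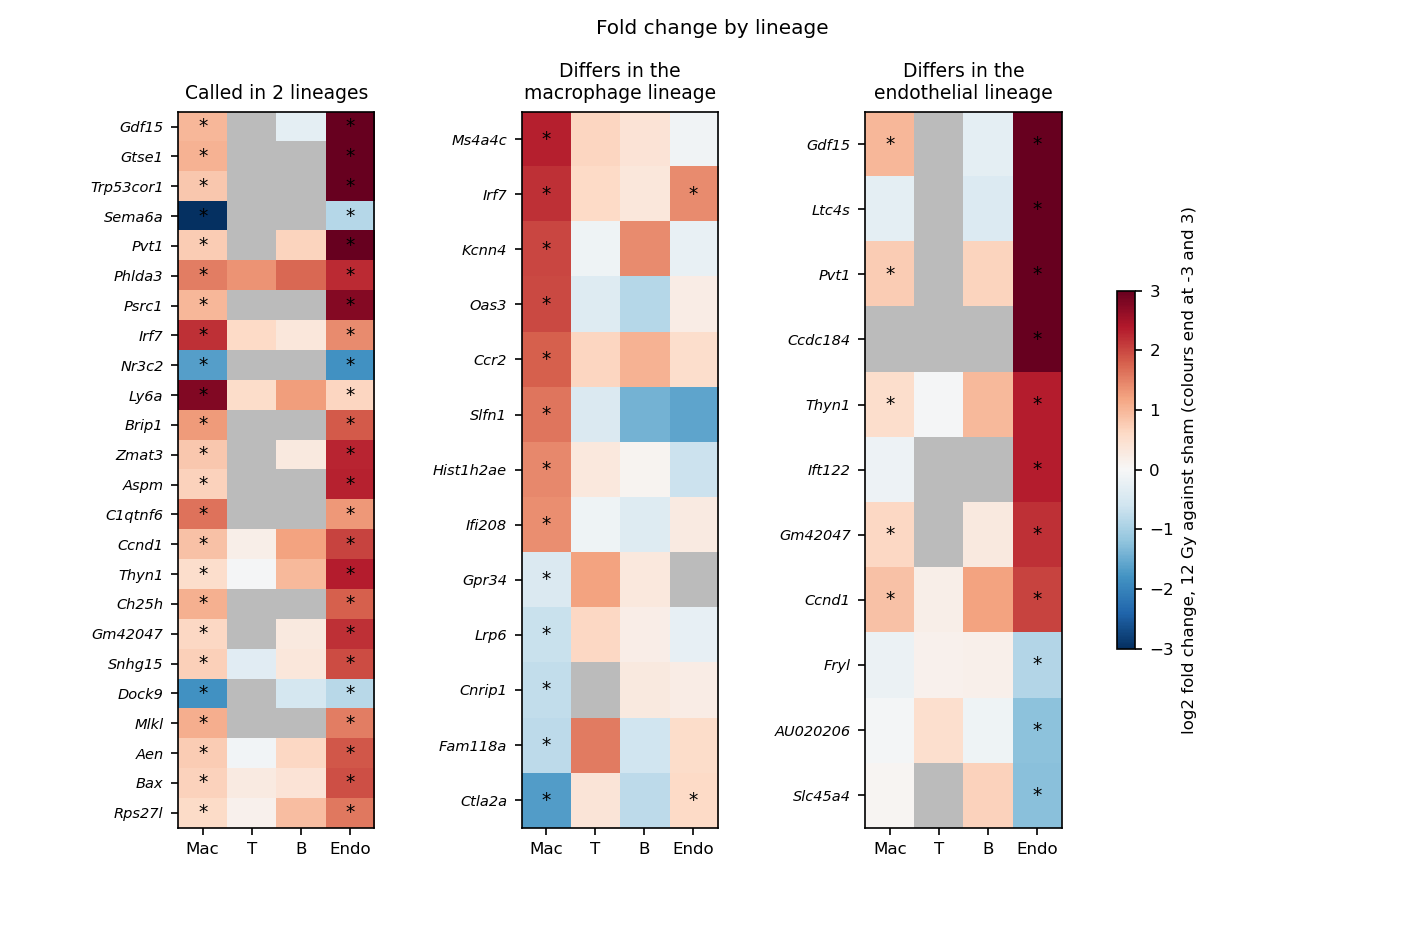
Log2 fold change of irradiated over sham libraries (colour, ending at -3 and 3) in the macrophage, T, B and endothelial lineages (columns) for the genes named by rule (rows): left, genes called in 2 lineages with the same sign; middle and right, genes whose fold differed in the macrophage or the endothelial lineage from the mean of the others. A star marks an adjusted p under 0.05 in that lineage and grey a gene not tested there; stars stand in the macrophage and endothelial columns and in no T or B column.

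Some targets of p53 rose in macrophages and most rose in endothelial cells. Of the 36 genes on the list, 35 were tested in macrophages, where 13 rose (5.64% of all genes did) and 0 fell with a median log2 fold of 0.27, and 35 in endothelial cells, where 21 rose (2.69% of all genes did) and 1, Rrm2b, fell with a median of 1.11. In macrophages 11 of the 35 folds were negative, and irradiated libraries were above both sham libraries for 18 members, against 25 in endothelial cells. Over all genes tested this held for 26.4% in macrophages and 25.3% in endothelial cells. The median over all genes was -0.01 in both lineages. The medians of the list in T and B cells were -0.08 and -0.09, with 11 of 24 and 12 of 30 tested members positive. For 10 of the 35 members the fold differed between the lineages by the joint test described below, where it did for 1.01% of all genes.

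Phlda3, an inhibitor of AKT signalling induced by p53 (ENSMUSG00000041801, chr1:135766119-135769136 on GRCm38), stood at 14.7 and 13.8 CPM in sham and 39.6 and 42.2 CPM in irradiated macrophages. In endothelial cells it stood at 66.7 and 72.7 CPM in sham against 321 and 337 CPM. It rose in both (log2 fold 1.54 ± 0.09, adjusted p = 0.00206 in macrophages; 2.25 ± 0.11, adjusted p = 6.42e-05 in endothelial cells), with no overlap of the groups. The difference between the 2 folds did not pass (endothelial minus macrophage 0.69 ± 0.25, adjusted p = 0.312). In T cells the values were 5.70 and 3.39 CPM against 7.0 and 16.5, and in B cells 1.82 and 1.15 against 7.44 and 3.51, so irradiated libraries were above sham there too, at low levels and without a call (adjusted p = 0.718 and 0.275). Its calls were kept in each of the 6 fits that left out 1 library.

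Bax, which encodes the pore-forming effector of mitochondrial cell death (ENSMUSG00000003873, chr7:45461697-45466898), went from 135 and 137 CPM to 216 and 217 CPM in macrophages (log2 fold 0.69 ± 0.07, adjusted p = 0.00416). In endothelial cells it went from 139 and 145 to 567 and 508 CPM (1.93 ± 0.09, adjusted p = 6.42e-05). The endothelial rise was larger by 1.23 ± 0.16 on the log2 scale (adjusted p = 0.00102). T cells had 95.5 and 99.6 CPM in sham and 133 and 120.3 in irradiated libraries and B cells 100.5 and 78.2 against 121 and 118. Irradiated libraries were the higher ones in all 4 lineages, while the T and B folds of 0.26 ± 0.20 and 0.41 ± 0.15 were not called. Both calls held in each fit without 1 library.

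Gdf15, a secreted stress cytokine of the TGF-beta family (ENSMUSG00000038508, chr8:70629393-70632456), had the largest mean fold of the shared genes. Endothelial cells had 54.5 and 31.8 CPM in sham and 527 and 679 CPM in irradiated libraries (log2 fold 3.84 ± 0.23, adjusted p = 0.00018). Macrophages had 124 and 79.6 against 184 and 214 CPM (0.99 ± 0.18, adjusted p = 0.0198). B cells had 11.5 and 2.60 against 3.10 and 5.74 CPM, with overlapping groups. In T cells, where its counts were too low for a test, Gdf15 stood at 25.6 and 7.45 CPM in sham and 3.5 and 6.59 CPM in irradiated libraries, so both irradiated values were below both sham values. The endothelial rise exceeded the macrophage rise by 2.83 ± 0.25 (adjusted p = 1.03e-05). The macrophage call was lost without irradiated replicate 1 (adjusted p = 0.0773) or irradiated replicate 2 (0.0886), at folds of 1.11 and 0.87.

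Cdkn1a, which encodes the cell cycle inhibitor p21 (ENSMUSG00000023067, chr17:29090976-29100727), rose in endothelial cells from 577 and 653 to 1279.7 and 1648 CPM (log2 fold 1.27 ± 0.13, adjusted p = 0.00344). In macrophages it went from 438 and 487 to 604 and 697 CPM (0.51 ± 0.10, adjusted p = 0.0259), a call lost without sham replicate 1 (adjusted p = 0.0969) and without irradiated replicate 1 or 2 (0.0629 and 0.0982). B cells stood at 120.4 and 129 against 122 and 125 CPM and T cells at 161 and 159.9 against 96.2 and 188 CPM. The lymphocyte groups overlapped, and the fold in B cells was -0.04 ± 0.20. Rps27l, a ribosomal protein paralogue induced by p53, rose from 213 and 225 to 327 and 315 CPM in macrophages and from 224 and 238 to 711 and 652 CPM in endothelial cells (log2 folds 0.57 ± 0.07 and 1.57 ± 0.09). Without irradiated replicate 1 its macrophage fold was 0.55 (adjusted p = 0.0614).

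Promoter windows from RefSeq (GRCm38.p6, 250 bases before to 50 after each annotated start) were searched on both strands for the interferon-stimulated response element, GAAANNGAAA, and for the p53 response element, a pair of decamers without spacer in which the central C and G of each had to be kept and up to 2 other bases could differ. Windows were found for 78 of the 90 shared genes that rose, and for 27025 genes in all. The p53 element was in 8.97% of the 78 and in 0.392% of all genes, and in 5 of the 11 matched genes among the 13 of the p53 list. The response element of interferon was in 7.69% of the 78 and 3.99% of all genes, and in 4 of the 32 matched genes (12.5%) that rose more in macrophages than elsewhere. The 4 sequences below are shown because they stand in genes of the p53 list that rose in both lineages, and capitals mark the p53 element. The match of the fifth gene, Gtse1, begins 1 base before its start in a stretch that overlaps an annotated exon, and is not shown.
Cdkn1a, chr17:29090908-29090967, plus strand: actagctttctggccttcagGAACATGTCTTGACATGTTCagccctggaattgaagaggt
Rps27l, chr9:66946276-66946335, plus strand: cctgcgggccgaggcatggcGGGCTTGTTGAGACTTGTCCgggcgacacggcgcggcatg
Ckap2, chr8:22185983-22186042, minus strand: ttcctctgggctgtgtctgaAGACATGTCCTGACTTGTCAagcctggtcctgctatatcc
Ccng1, chr11:40755442-40755501, minus strand: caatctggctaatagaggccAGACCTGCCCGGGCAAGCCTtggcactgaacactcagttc

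The p53 elements begin 51, 117, 203 and 195 bases before the RefSeq start of Cdkn1a, Rps27l, Ckap2 and Ccng1. On the GENCODE vM21 annotation the stretch of Rps27l lies in the gene outside its exons, and the other 3 lie outside any gene. Ccng1, a cyclin induced by p53, rose from 44.6 and 42.5 to 94.1 and 94.2 CPM in endothelial cells and from 51.0 and 44.6 to 67.6 and 61.3 CPM in macrophages. Ckap2, a spindle protein, rose from 4.10 and 6.87 to 17.7 and 13.6 CPM in endothelial cells and from 9.52 and 9.08 to 13.7 and 13.6 CPM in macrophages. A match is a description of these letters, not a site or a cause, and no binding was measured.

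Several p53 list members were low in sham endothelial cells and much higher after 12 Gy. Gtse1, a regulator of p53 and of the mitotic spindle, went from 0.410 and 1.56 to 14.3 and 15.4 CPM (3.78 ± 0.42, adjusted p = 0.00391). Trp53cor1, the long noncoding RNA next to Cdkn1a, went from 0.819 and 0.624 to 10.8 and 10.1 CPM (3.84 ± 0.42, adjusted p = 0.00391). Zmat3, an RNA-binding protein of the p53 response, went from 9.01 and 16.5 to 70.6 and 56.9 CPM (2.28 ± 0.23, adjusted p = 0.00279). The 3 endothelial calls held in each fit without 1 library. Sham values of Gtse1 and Trp53cor1 rest on a handful of UMIs, so the size of their folds is uncertain. In macrophages the same genes rose by 1.04 ± 0.21, 0.81 ± 0.20 and 0.81 ± 0.16, and the endothelial minus macrophage differences of 2.72 ± 0.64, 3.02 ± 0.68 and 1.44 ± 0.35 did not pass (adjusted p = 0.0598, 0.0557 and 0.0696). The macrophage call of Trp53cor1 was lost without any 1 of the 6 libraries (adjusted p from 0.0725 to 0.194), and those of Gtse1 and Zmat3 were lost without sham replicate 2 (0.0895 and 0.0647), irradiated replicate 1 (0.112 and 0.0923) or irradiated replicate 2 (0.089 and 0.112).

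Aen, a nuclease of p53-dependent cell death, rose from 20.1 and 20.9 to 85.3 and 63.9 CPM in endothelial cells and from 11.5 and 11.7 to 21.2 and 17.9 CPM in macrophages. Its folds of 1.87 ± 0.17 and 0.77 ± 0.11 differed by 1.07 ± 0.18 (adjusted p = 0.00788), and the macrophage call was lost without irradiated replicate 1 (0.067). Mdm2, the ligase that degrades p53 and is itself a p53 target, rose from 55.7 and 49.0 to 103 and 143 CPM in endothelial cells (1.26 ± 0.17, adjusted p = 0.00878), more than the mean of the other lineages (adjusted p = 0.00759 for the contrast). In macrophages it went from 71.6 and 74.4 to 96.2 and 109.7 CPM (0.51 ± 0.10, adjusted p = 0.0221). The endothelial groups of both genes were apart by more than their internal spread.

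Other shared risers had no place on the p53 list. Ccnd1, the cyclin that carries cells into the division cycle, rose from 371 and 367 to 1698 and 1291 CPM in endothelial cells (2.03 ± 0.12, adjusted p = 0.00018) and from 116 and 104 to 214 and 182 CPM in macrophages (0.87 ± 0.12, adjusted p = 0.00914). The endothelial rise was larger by 1.14 ± 0.21 (adjusted p = 0.0154). Ly6a, the surface protein Sca-1, was high in endothelial cells before treatment, at 1656 and 1863 CPM, and rose to 2673 and 2743 (0.64 ± 0.09, adjusted p = 0.00892). In macrophages it stood at 14.2 and 15.2 CPM in sham and 145 and 56.3 CPM in irradiated libraries (2.78 ± 0.50, adjusted p = 0.0196), so the 2 irradiated values differed from each other more than the sham values did. The macrophage call of Ly6a was lost without sham replicate 1 or 2 (adjusted p = 0.0895 and 0.0739) or irradiated replicate 1 (fold 1.96, adjusted p = 0.0782). It is 1 of 9 shared genes for which the level in 1 of the 2 lineages was under 10% of that in the lineage with the highest level.

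Of the 90 shared risers, 7 had symbols that start with Psm, the prefix of genes of the proteasome, the particle that degrades proteins. Not every gene with the prefix encodes a subunit. The group was noticed after the values were seen and was not tested. Among the genes with that prefix, 20 of 49 rose in macrophages and 14 of 48 in endothelial cells, and 0 fell in either, where 5.64% and 2.69% of all genes rose. Medians were 0.32 and 0.39, beside 0.18 in T and 0.35 in B cells, where none was called. In B cells 46 of 48 had positive folds and in T cells 39 of 46.

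Sema6a, a guidance receptor of endothelial cells, was the shared gene with the largest mean fall. It went from 4.30 and 3.66 to 0.227 and 0.555 CPM in macrophages (-3.26 ± 0.40, adjusted p = 0.0069) and from 173 and 118 to 72.1 and 85.2 CPM in endothelial cells (-0.86 ± 0.18, adjusted p = 0.0389). The macrophage levels were far below the endothelial ones, and the 2 folds differed by 2.37 ± 0.40 (adjusted p = 0.00788). The endothelial call was lost without sham replicate 1 (0.137), irradiated replicate 1 (0.16) or either knockout library (0.0788 and 0.0765).

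The interferon-stimulated list had 52 genes, most of which rose in macrophages. There 38 of 50 tested members rose and 1, Trim25, fell, with a median log2 fold of 0.92. In endothelial cells 7 of 50 rose and 0 fell, with a median of 0.47. Over all genes 5.64% rose in macrophages and 2.69% in endothelial cells. No member was called in T or B cells (medians 0.22 and 0.07, 26 of 40 and 28 of 49 positive). Irradiated libraries were above both sham libraries for 48 members in macrophages, 35 in endothelial cells, 15 in T and 17 in B cells, while over all genes tested this held for 26.4%, 25.3%, 26.0% and 23.2% in the same order. The effect differed between lineages by the joint test for 5 of the 50, where it did for 1.01% of all genes. Without cells that had 20 or more neutrophil UMIs, 39 rose in macrophages and 5 in endothelial cells, and the B cell median was 0.38.

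Irf7, the transcription factor that amplifies type I interferon production (ENSMUSG00000025498, chr7:141262706-141266481), rose in macrophages from 40.8 and 42.9 to 217 and 162 CPM (log2 fold 2.19 ± 0.21, adjusted p = 0.00416). In endothelial cells it rose from 70.0 and 67.4 to 199 and 164 CPM (1.41 ± 0.22, adjusted p = 0.0159), a call lost without sham replicate 1 (adjusted p = 0.0698) or sham replicate 2 (0.0642). T cells had 32.8 and 48.8 CPM in sham and 59.5 and 79.1 in irradiated libraries, and B cells 36.9 and 52.5 against 63.8 and 55.9. The groups were apart in all 4 lineages, and the macrophage fold exceeded the mean of the other lineages by 1.40 ± 0.24 (adjusted p = 0.0113). Against endothelial cells alone the difference did not pass (-0.79 ± 0.28 for endothelial minus macrophage, adjusted p = 0.311).

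Bst2, or tetherin, which holds budding virus at the cell surface, rose from 252 and 239 to 563 and 457 CPM in macrophages (1.07 ± 0.12, adjusted p = 0.00522) and from 409 and 459 to 868 and 732 CPM in endothelial cells (0.89 ± 0.11, adjusted p = 0.00638). In B cells it stood at 58.7 and 55.7 CPM in sham and 103 and 117 CPM in irradiated libraries, a fold of 0.93 ± 0.16 close to the others that was not called (adjusted p = 0.225). Lgals3bp, a secreted glycoprotein, went from 147 and 147 to 257 and 253 CPM in macrophages and from 108 and 115 to 223 and 193 in endothelial cells (0.81 ± 0.09 and 0.91 ± 0.12, both called). Its values in B cells, 16.9 and 11.5 against 27.9 and 26.1 CPM, and T cells, 31.3 and 31.8 against 85.7 and 51.1 CPM, were also apart, at folds of 0.94 ± 0.21 and 0.99 ± 0.33 that were not called.

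**Figure D4:**
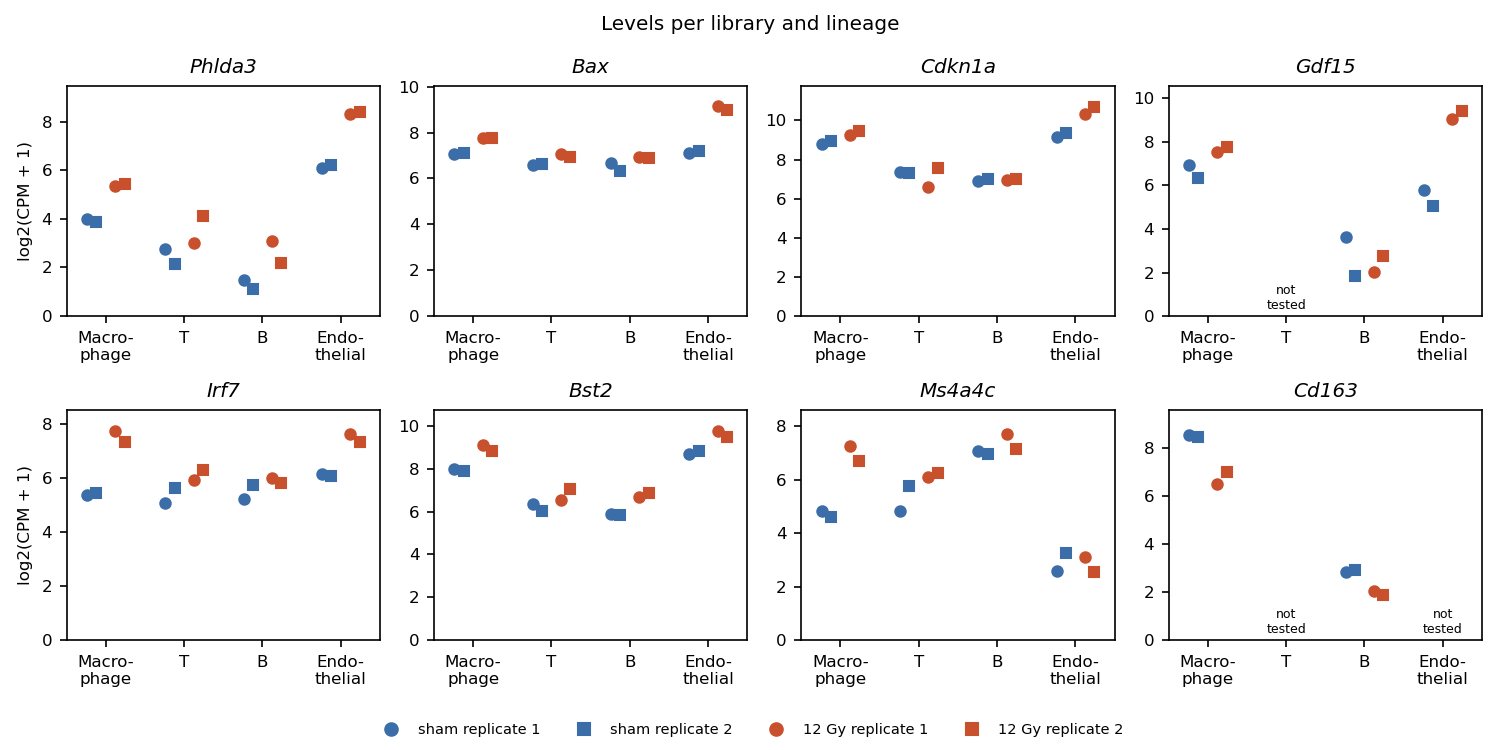
Level of 8 genes in each library and lineage on a log2 scale of CPM plus 1 (y axis), with sham in blue and 12 Gy in orange, circles for replicate 1 and squares for replicate 2. Phlda3 and Bax lie higher after 12 Gy in each lineage, Cdkn1a is apart between the groups in macrophages and endothelial cells, Gdf15 spreads furthest in endothelial cells, Ms4a4c in macrophages, and Cd163 is lower after 12 Gy in macrophages.

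Which folds differed between lineages was tested in 1 joint model of the 24 sums, with the library as a block. The fold differed among the 4 lineages for 134 of 13245 genes, 1.01%. Contrasts of 1 lineage with the mean of the other 3 were called for 78 genes (0.589%) in macrophages, 33 (0.249%) in endothelial cells and 0 in T and in B cells. Requiring also a call in the lineage itself left 45 macrophage genes, 39 of which rose, and 27 endothelial genes, 24 of which rose. Between pairs of lineages, 92 genes (0.695%) differed for endothelial against macrophage, 67 (0.506%) for B against macrophage, 30 (0.227%) for endothelial against B, 18 (0.136%) for T against macrophage, 11 (0.0831%) for endothelial against T and 0 for B against T; these 6 contrasts were added after the counts per lineage were seen. The 134 became 50, 32 and 9 without irradiated replicate 1, irradiated replicate 2 and sham replicate 2. Cells with 20 or more neutrophil UMIs were left out in an alternative added after seeing the data. The contrast was then called again for 21 of the 45 and 20 of the 27. That count did not ask for the call in the lineage itself.

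In endothelial cells the genes with a larger rise than elsewhere included 8 of the p53 list: Gdf15, Dcxr, Bax, Aen, Rps27l, Trp53inp1, Cdkn1a and Mdm2. The contrast of Cdkn1a was 1.19 (adjusted p = 0.048) and was not called without neutrophil-UMI cells (0.91, adjusted p = 0.0717). Ltc4s, leukotriene C4 synthase (ENSMUSG00000020377, chr11:50236461-50238616), rose from 11.1 and 19.4 to 154 and 184 CPM (3.45 ± 0.22, adjusted p = 0.000231). In macrophages it stood at 233 and 327 CPM in sham and 199 and 251 CPM in irradiated libraries, with overlapping groups. The endothelial fold exceeded the mean of the other lineages by 3.18 ± 0.55 (adjusted p = 0.0166). Thyn1 went from 9.01 and 9.05 to 48.2 and 44.3 CPM in endothelial cells (2.36 ± 0.16, adjusted p = 0.000322) and from 16.2 and 15.4 to 23.1 and 21.9 CPM in macrophages. For Thyn1 the contrast with the other lineages was 1.88 ± 0.34 (adjusted p = 0.0196) and without neutrophil-UMI cells 1.72 (0.0505). Ccdc184, a gene of a coiled-coil protein, rose in endothelial cells from 2.46 and 5.31 to 43.6 and 26.5 CPM (3.11 ± 0.35, adjusted p = 0.00404). It is 1 of the 27, but it was too low to be tested in the other 3 lineages, so no difference from them is read from its contrast. The endothelial calls of Ltc4s, Thyn1 and Ccdc184 were kept in each fit without 1 library.

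Capillary and matrix genes of endothelial cells moved in both directions. Of 33 genes of endothelial identity and capillary function, 3 rose and 5 fell, where 2.69% of all genes rose and 1.85% fell. Apln, the peptide apelin made by sprouting endothelial tip cells (ENSMUSG00000037010, chrX:48025146-48034853), rose from 45.9 and 47.5 to 329 and 218 CPM (2.56 ± 0.19, adjusted p = 0.000647). Car4, a carbonic anhydrase of capillary surfaces, fell from 125 and 129.9 to 47.1 and 63.5 CPM (-1.19 ± 0.16, adjusted p = 0.00799). Lrg1, a secreted glycoprotein that modifies TGF-beta signalling, fell from 106 and 83.4 to 6.94 and 22.7 CPM (-2.62 ± 0.35, adjusted p = 0.00803). Lrg1 was also 58.1 and 228 CPM in sham and 28.5 and 30.9 CPM in irradiated B cells, highest in sham replicate 2, the library with most neutrophil transcripts. Without cells that had 20 or more neutrophil UMIs its endothelial fold was -2.35 and was no longer called (adjusted p = 0.0672).

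A pair of angiogenic receptors fell. Tek, the receptor of angiopoietins, fell from 244 and 223 to 80.6 and 126 CPM in endothelial cells (-1.15 ± 0.19, adjusted p = 0.0169), a call lost without sham replicate 1 (adjusted p = 0.0699) or sham replicate 2 (0.0515). Flt1, a receptor of vascular endothelial growth factor, fell from 955 and 926 to 599.9 and 691 CPM (-0.53 ± 0.10, adjusted p = 0.0282). Its call was kept in 1 of the 6 fits without a library, with adjusted p from 0.0668 to 0.101 in the others. Among inflammatory genes Cxcl9, a chemokine induced by interferon gamma, rose in endothelial cells from 81.5 and 57.1 to 353 and 215 CPM (2.05 ± 0.39, adjusted p = 0.0289), and its call was lost without sham replicate 1 (0.0942), sham replicate 2 (0.11) or irradiated replicate 1 (0.082).

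Of 24 tested genes of the TGF-beta and fibrosis list, 3 rose and 1 fell in endothelial cells, beside the same 2.69% and 1.85% of all genes. Sparc, a matrix protein, rose from 1807 and 2228 to 4659.7 and 3918 CPM (1.10 ± 0.11, adjusted p = 0.00279), and the basement membrane collagen Col4a1 from 1126 and 1158 to 1769.7 and 1565 CPM (0.56 ± 0.07, adjusted p = 0.00798). Cd34, a sialomucin of endothelial and progenitor surfaces, rose from 417 and 457 to 678 and 685 CPM (0.65 ± 0.09, adjusted p = 0.00757). Igfbp7, a secreted binding protein on the senescence list, rose from 1299.8 and 1535 to 2341 and 2186 CPM (0.69 ± 0.09, adjusted p = 0.00798). Igfbp5, another gene of such a protein, went the other way, with a called log2 fold of -2.38. With the replicate block that fall was not called (adjusted p = 0.0564). Each of these 4 rises, and the changes of Apln, Car4 and Lrg1, was called in every fit that left out 1 library. None of the 7 passed the contrast with the mean of the other lineages, so none is shown to differ from them.

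Other cells' transcripts moved in the endothelial sums. Of the 8 fibroblast markers 3 fell, where 1.85% of all genes fell. They included Dcn, decorin, which fell from 361 and 513 to 94.5 and 137 CPM (-1.90 ± 0.24, adjusted p = 0.00651). The 8 fibroblast markers summed to 1357 and 1851 CPM in sham and 951 and 1087 CPM in irradiated libraries. The 8 mural markers, of which none was called, summed to 4028 and 3319 CPM against 3257 and 2458 CPM. Their part in the endothelial results was not tested.

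Of the 45 genes that set macrophages apart, 4 were on the interferon-stimulated list: Ms4a4c, Irf7, Oas3 and Slfn1. The contrasts of Oas3 and Slfn1 were not called without neutrophil-UMI cells; that of Slfn1, a growth regulatory gene of the Schlafen family, went from 2.64 (adjusted p = 0.00442) to 1.41 (0.538). Ms4a4c, a membrane protein of monocytes (ENSMUSG00000024675, chr19:11404770-11427246), rose from 27.7 and 23.4 to 151 and 103 CPM (2.33 ± 0.24, adjusted p = 0.00433). In B cells it stood at 134 and 122 against 208 and 140.2 CPM and in endothelial cells at 4.91 and 8.43 against 7.72 and 4.89 CPM. The macrophage fold exceeded the mean of the others by 2.02 ± 0.29 (adjusted p = 0.00442) and was called in each fit without 1 library. Ccr2, the chemokine receptor of monocytes recruited from blood, rose from 147 and 88.7 to 433 and 363 CPM (1.78 ± 0.21, adjusted p = 0.00631), with 61.1 and 44.7 against 110.3 and 108 CPM in B and 139.6 and 133 against 250.2 and 213 CPM in T cells, where the irradiated values were also higher. Its contrast with the other lineages was 1.07 ± 0.23 (adjusted p = 0.0429; 0.0512 without neutrophil-UMI cells), and without irradiated replicate 1 its own call was lost (adjusted p = 0.0509).

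Oas3, which makes the antiviral messenger 2-5A, rose in macrophages from 6.91 and 9.42 to 36.3 and 27.8 CPM (1.97 ± 0.26, adjusted p = 0.00873; adjusted p = 0.0618 without irradiated replicate 1). Its B cell values of 16.3 and 40.1 CPM in sham and 21.1 and 14.8 CPM in irradiated libraries were highest in sham replicate 2. Its contrast of 2.23 ± 0.31 (adjusted p = 0.00442) became 1.30 (adjusted p = 0.539) without the cells that had 20 or more neutrophil UMIs, so the difference between lineages was lost with those cells. Kcnn4, a calcium-activated potassium channel, rose in macrophages from 11.5 and 7.59 to 39.6 and 34.6 CPM (1.99 ± 0.20, adjusted p = 0.00417). It was 54.1 and 63.7 CPM in sham and 64.7 and 52.7 CPM in irradiated T cells, with overlap. In B cells it was 10.3 and 11.8 CPM in sham and 21.7 and 36.5 CPM in irradiated libraries, without overlap, at a fold of 1.42 ± 0.38 that was not called. Its contrast of 1.65 ± 0.34 (adjusted p = 0.0316) was also not called without those cells (1.67, adjusted p = 0.0974).

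The interferon-stimulated response element stood in the promoter windows of Oas3 and of Ifi208, an interferon-inducible gene of the p200 family, which are shown because both genes rose more in macrophages than in the mean of the other lineages. Capitals mark the element, which begins 75 bases before the start of Oas3 and 58 before that of Ifi208, outside any GENCODE gene.
Oas3, chr5:120777705-120777754, minus strand: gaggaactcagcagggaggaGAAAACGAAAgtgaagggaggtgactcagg
Ifi208, chr1:173673587-173673636, plus strand: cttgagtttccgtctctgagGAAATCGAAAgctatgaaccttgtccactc

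Ifi208 went from 9.61 and 6.57 to 24.1 and 17.9 CPM in macrophages (1.40 ± 0.31, adjusted p = 0.0341) and stood at 7.87 and 11.0 CPM in sham and 8.68 and 7.01 CPM in irradiated B cells, with overlap. Its contrast with the other lineages was 1.51 ± 0.30 (adjusted p = 0.0274), and 1.70 (0.0221) without neutrophil-UMI cells. Genes of the p200 family resemble one another, so counts of Ifi208 may be shared with its relatives.

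Within macrophages, 15 of 26 tested genes of a list of long-lived resident cells fell and 1, Siglec1, rose, with a median of -0.57, where 4.26% of all genes fell. Of 20 genes of a list of monocyte-derived cells 6 rose, 13 were not called and 1, Chil3, fell, with a median of 0.34. Irradiated libraries were above both sham libraries for 9 of these 20, where this held for 26.4% of all genes. They were below both for 21 of the 26 resident genes, where this held for 29.1% of all genes. Cd163, the haemoglobin scavenger receptor (ENSMUSG00000008845, chr6:124304656-124330527), fell from 370.0 and 352 to 89.1 and 128 CPM (-1.72 ± 0.16, adjusted p = 0.00385). Vsig4, a complement receptor of tissue macrophages, fell from 150.2 and 172 to 36.1 and 61.5 CPM (-1.70 ± 0.23, adjusted p = 0.00928), and Colec12, a scavenger collectin, from 82.3 and 85.1 to 17.3 and 27.4 CPM (-1.88 ± 0.19, adjusted p = 0.00417). The 3 falls were called in each fit without 1 library, and irradiated replicate 1 was lower than irradiated replicate 2 for each. At the 5% mitochondrial limit, where no macrophage gene was called, the fold of Vsig4 was -0.92 (adjusted p = 0.438), while those of Cd163 and Colec12 were -1.32 and -1.56 (0.0754 for both). In sums over a lineage, fewer cells of a type and less RNA per cell cannot be told apart. None of the resident genes differed between lineages by the joint test.

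Cxcl10, a chemokine that draws activated T cells, rose in macrophages from 130.5 and 104 to 439 and 334 CPM (1.74 ± 0.19, adjusted p = 0.00522). Mmp12, macrophage elastase, rose from 93.8 and 71.7 to 277 and 211 CPM (1.58 ± 0.16, adjusted p = 0.00465). Complement factor B, Cfb, rose from 16.7 and 15.6 to 58.3 and 60.8 CPM (1.90 ± 0.21, adjusted p = 0.00522). The calls of these 3 genes held in each fit without 1 library. Cxcl10 had positive folds of 1.64 ± 0.51, 1.64 ± 0.87 and 1.53 ± 0.89 in T, B and endothelial cells, without a call, and its groups overlapped in B cells.

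Genes induced by interferon gamma had positive folds in macrophages for 19 of 19 tested members, of which 4 rose, with a median of 0.83. The endothelial median was 0.10 with 1 of 19 risen. Over all genes 5.64% rose in macrophages and 2.69% in endothelial cells. Of 28 chemokine and receptor genes 5 rose and 1 fell in macrophages, where 5.64% of all genes rose and 4.26% fell. Itgax, the integrin CD11c, rose from 18.5 and 17.2 to 49.9 and 38.0 CPM (1.32 ± 0.16, adjusted p = 0.00678), and Il1rn, the interleukin 1 receptor antagonist, from 36.0 and 48.2 to 86.3 and 104 CPM (1.19 ± 0.16, adjusted p = 0.00955), both called in each fit without 1 library. Their folds at the 5% mitochondrial limit were 0.85 and 0.51. Timd4, a receptor for dying cells found on resident macrophages, fell from 97.0 and 119.7 to 32.1 and 50.6 CPM (-1.37 ± 0.29, adjusted p = 0.033), with irradiated replicate 1 the lowest of the 4. Its call was lost without either sham library (adjusted p = 0.0645 and 0.1) or either irradiated one (0.169 and 0.0572), and its fold at the 5% mitochondrial limit was -0.68.

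Of the cell cycle genes, most rose in macrophages and none was called elsewhere. Of 40 listed genes 32 rose and 0 fell in macrophages, with a median of 0.91, where 5.64% of all genes rose. Irradiated libraries were above sham for each of the 40, where this held for 26.4% of all genes. Rrm2, a subunit of ribonucleotide reductase, rose from 8.85 and 9.62 to 25.5 and 24.5 CPM (1.45 ± 0.16, adjusted p = 0.00522), and Cenpe, a kinetochore motor, from 13.7 and 14.1 to 33.7 and 27.9 CPM (1.16 ± 0.11, adjusted p = 0.00385). No member was called in the other lineages, where 32 of 32 (T), 34 of 36 (B) and 34 of 39 (endothelial) had positive folds with medians of 0.63, 1.02 and 0.59. The summed level of the list was 1503 and 1499 CPM in sham and 1751 and 1995 CPM in irradiated B cells, and 1440 and 1664 against 2271 and 1641 CPM in endothelial cells, so the endothelial groups overlapped. In T cells it was 3100 and 2186 CPM in sham and 4815 and 2823 CPM in irradiated libraries, again with overlap and highest in irradiated replicate 1, and irradiated libraries were above both sham libraries for 8 of the 32 members, where this held for 26.0% of all genes. None of the list differed between lineages by the joint test.

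**Figure D5:**
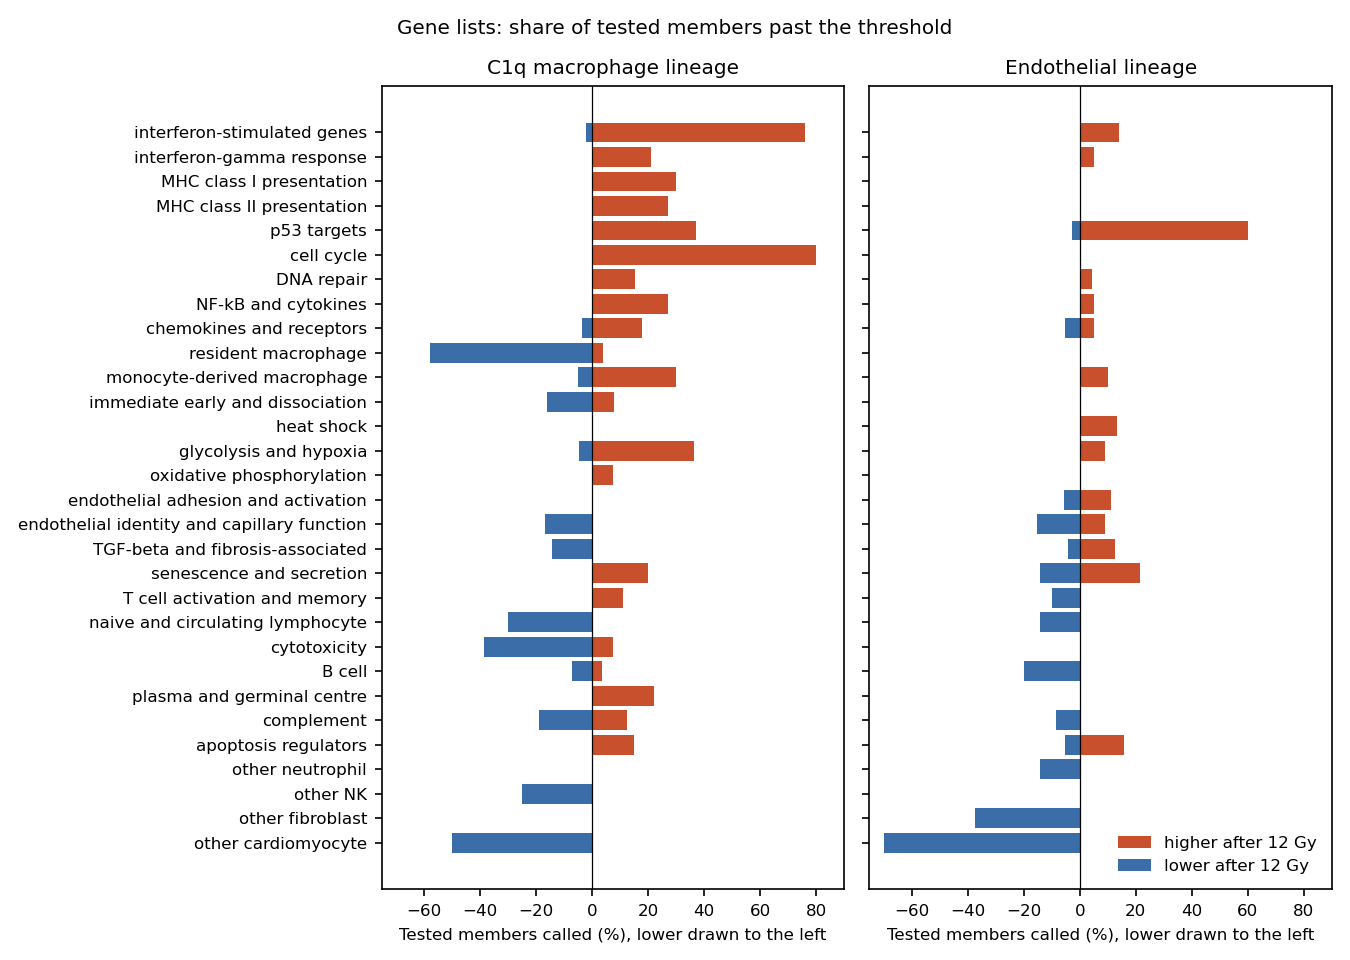
Percent of the tested members of each gene list that were called higher (orange, to the right) or lower (blue, to the left) after 12 Gy in macrophages (left panel) and endothelial cells (right panel). Interferon-stimulated and cell cycle genes have the longest right-hand bars in macrophages, and p53 targets in endothelial cells, where 21 of 35 rose; lists whose name starts with "other" hold markers of other cell types.

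T and B cells had no called gene, and their lists are described by their values. Antigen presentation by MHC class I leaned upward in all 4 lineages. In macrophages, T, B and endothelial cells 20, 18, 18 and 17 of 20 genes were positive. Medians were 0.51, 0.25, 0.27 and 0.29 in the same order. Of these genes 6 were called, in macrophages, where 9.9% of all genes were called. Psmb8, an immunoproteasome subunit, went from 285 and 303 to 493 and 391 CPM in T cells, from 237 and 228 to 329 and 352 CPM in B cells and from 234 and 223 to 419 and 323 CPM in macrophages (0.71 ± 0.14, adjusted p = 0.0271 in macrophages). Genes of naive and circulating lymphocytes leaned downward in B cells, with 0 of 10 positive and a median of -0.62. Ighm, the heavy chain of IgM, was 2769.9 and 3197 CPM in sham B cells and 2875 and 10176 CPM in irradiated ones, high in replicate 2 alone.

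In T cells 13 of 13 tested cytotoxicity genes had positive folds, with a median of 0.81. Irradiated libraries were above both sham libraries for 5 of the 13, where this held for 26.0% of all genes. Irradiated replicate 1 was far above irradiated replicate 2 for the genes that follow. Gzma, granzyme A, was 172 and 362 CPM in sham and 1538 and 254 CPM in irradiated T cells, and Nkg7, a granule protein, 366 and 328 against 1090.1 and 415 CPM. Ncr1, a receptor of natural killer cells, was 11.4 and 19.6 against 89.2 and 1.65 CPM. The 8 natural killer markers, which include Gzma, summed to 343 and 560 CPM in sham and 2089 and 371 CPM in irradiated T cells, so irradiated replicate 1 was high in these too. Their part in the T cell values was not tested. The 8 neutrophil markers summed to 4701 and 31776 CPM in sham T cells and 801 and 2950 CPM in irradiated ones. In B cells they summed to 9058 and 51996 against 4631 and 5322 CPM, and all 7 tested were lower in both irradiated libraries. Over all genes tested in B cells, 18.5% were below both sham libraries.

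Of the shared genes that fell, 5 of 30 were markers of cardiomyocytes, the muscle cells of the heart: Ttn, Myh6, Tnnt2, Myl2 and Actc1. Ttn, the giant sarcomere protein titin, fell from 61.0 and 52.8 to 20.8 and 30.4 CPM in endothelial cells (-1.12 ± 0.19, adjusted p = 0.0196) and from 13.4 and 15.2 to 7.86 and 7.46 CPM in macrophages (-0.89 ± 0.12, adjusted p = 0.01). The 10 cardiomyocyte markers summed to 383 and 359 CPM in sham and 291 and 246 CPM in irradiated macrophages, and to 817 and 915 against 566 and 530 CPM in endothelial cells. Igf1r, the receptor of insulin-like growth factor 1, fell as well, from 142 and 121 to 61.3 and 67.0 CPM in endothelial cells and from 41.0 and 41.4 to 18.1 and 24.9 CPM in macrophages (folds -1.02 ± 0.12 and -0.91 ± 0.14); it was chosen after its values were seen. The Ttn calls were lost without irradiated replicate 1 (adjusted p = 0.0657 in macrophages and 0.0637 in endothelial cells), without irradiated replicate 2 in macrophages (0.0528), and without sham replicate 1 or knockout replicate 1 in endothelial cells (0.0805 and 0.0506).

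A set of 10 genes was called in both lineages with opposite signs, and for 7 of them the endothelial and macrophage folds differed by the joint test. Ndrg1, a stress-responsive gene, rose in macrophages from 6.91 and 7.25 to 15.2 and 21.7 CPM (1.40 ± 0.18, adjusted p = 0.00873) and fell in endothelial cells from 272 and 219.8 to 108 and 149 CPM (-0.91 ± 0.19, adjusted p = 0.0353). Ctla2a, a cathepsin inhibitor (ENSMUSG00000044258, chr13:60934155-60936625), fell in macrophages from 26.7 and 59.3 to 11.6 and 15 CPM (-1.69 ± 0.35, adjusted p = 0.0303) and rose in endothelial cells from 567 and 631 to 872 and 915 CPM (0.59 ± 0.09, adjusted p = 0.0151). The Ctla2a fall was lost without irradiated replicate 1 (adjusted p = 0.175) or 2 (0.0944). The groups did not overlap for either gene in either lineage, and both genes were lower in macrophages than in endothelial cells. All 10 kept their signs in both lineages when neutrophil-UMI cells, cells with the highest doublet scores, or all cells but those with Xist or with Y-linked UMIs were left out in turn.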

How the data were processed

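The deposited files are count matrices of unique molecular identifiers (UMIs) per gene and cell, filtered to cell barcodes, made by the authors with Cell Ranger 5.0.0 on mm10, per the submitters' processing notes, which also name Seurat 3 with no role given. The members and gene lists were chosen with earlier results of these data known. UMIs were summed per library and lineage; CPM values are plain counts per 1000000 of that sum. Genes passing edgeR's filterByExpr were fitted in edgeR 4.0.16 (R 4.3.3) with TMM scaling, the quasi-likelihood F test and Benjamini-Hochberg adjustment, using 6 libraries in 3 groups (3 residual degrees of freedom). The standard error is the log2 fold divided by the square root of F. Differences between lineages came from 1 fit of 24 sums with library as a block (9 residual degrees of freedom). Genes that define a lineage were left out.

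On simulated counts, 2-fold changes were recovered for 82% of changed genes in macrophages, 54% in T, 62% in B and 49% in endothelial cells, and 4-fold changes for 99%, 98%, 100.0% and 98%. In the joint fit 22% and 88% were recovered. The simulation gave all genes of all lineages the same spread between libraries and changed only genes above a minimum mean count. In the data the typical standard error was larger in T and B cells than in endothelial cells. The recovered shares therefore do not rank the real comparisons by precision. Shares were compared by exact two-sided permutation tests (scipy 1.17.1). No doublet caller was applied to the main cells: scrublet in scanpy 1.11.5 called 0 to 3 cells per library on its own threshold, and an alternative removed 98 to 321 of the highest-scoring cells. Replicates of a group differed by 34.3 to 73.6 times the sampling noise in chi-square per degree of freedom, so none was taken for a duplicate.

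Named genes were the 24 shared genes with the largest mean fold, up to 8 rises and 8 falls per lineage that differed from the mean of the other lineages at 10 CPM or more without overlap, and up to 4 called members per list and lineage; a few others are said to be chosen later or stand as lineage, library or group checks. Alternatives covered DESeq2 1.42.0, other scaling and filters, other cell rules, the replicate block, the 4 wild-type libraries alone and leaving out each library. Leaving out cells with neutrophil UMIs, and splitting cells by Xist or Y-linked UMIs, were added after seeing the data.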

Additional observations from a re-analysis of the deposited data

Results flagged for a closer look

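For 7 genes the effects of 12 Gy in macrophages and endothelial cells had opposite signs, each called, and the difference itself was called. Endothelial minus macrophage folds on the log2 scale were -2.32 for Ndrg1, 1.81 for Cxxc5, 2.17 for Ctla2a, 1.54 for Mxra7, 1.53 for Nid2, 2.59 for Cox6b2 and 2.43 for Fscn1. Nid2 encodes the basement membrane protein nidogen 2, Fscn1 the actin-bundling protein fascin, and Cox6b2 a cytochrome oxidase subunit. In macrophages Ndrg1 rose and the other 6 fell.

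Cells that met both the macrophage and the B rule were left out of the main comparisons, yet they were more frequent after 12 Gy. They entered the alternative in which cells meeting several rules were kept. They made up 4.98% and 5.74% of kept cells in the sham libraries and 7.39% and 10.2% in the irradiated ones, a mean of 8.81% after 12 Gy. The exact two-sided permutation p was 0.33, the smallest that 2 libraries against 2 allow. Of these cells 35.9% and 46.2% in the sham libraries and 38.0% and 46.3% in the irradiated ones had both Xist and Y-linked UMIs, against 2.47% to 5.34% of macrophage-lineage cells and 6.78% to 14.3% of B-lineage cells in the same libraries.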

How the results depend on the processing

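The order of counts below is macrophage, endothelial, shared and differing between lineages, which were 1296, 531, 120 and 134 in the report. Without a filter on low counts they were 2206, 1623, 803 and 916 (T 258, B 761); with cells meeting several rules kept 580, 36, 15 and 70 (T 8); with a 5% mitochondrial limit 0, 259, 0 and 29 (T 1, B 1); in cells with Xist 755, 63, 17 and 7 (B 1); and in cells with Y-linked UMIs 384, 113, 18 and 29. Thinning to 2000 UMIs gave 606, 160 and 34 for the first 3 (T 1). With the 4 wild-type libraries alone the endothelial and shared counts were 135 and 32. DESeq2 gave 10 T genes, 51 B genes and 213 differing genes, and removing the highest doublet scores gave 1 T gene. The replicate block gave 21 T genes, 237 endothelial genes and 56 shared genes. The numbers are not stated to pair libraries, and same-numbered sham and irradiated libraries deviated together with correlations of 0.19 in macrophages, 0.00 in T, 0.12 in B and -0.12 in endothelial cells.

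Leaving out 1 library gave 138 to 873 macrophage, 0 to 98 T, 0 to 257 B and 152 to 636 endothelial genes, 11 to 146 shared genes and 9 to 171 differing genes. Of 185 calls of named genes, 51 were kept in every such fit. DESeq2 kept 166, leaving out neutrophil-UMI cells 180, and the 5% limit 44 of 178. Signs turned for 7: in macrophages H2-Oa when thinned (-0.093), Prf1, Gzma and Klre1 without the highest doublet scores (0.43, 0.65 and 0.16), Bank1 with cells of several rules kept (0.027) and Actc1 at the 5% limit (0.16), and in endothelial cells Bcl2l11 with cells of several rules kept (0.17). Causes were not tested. Of 100 genes changed 2-fold in simulated counts, 82% were recovered in macrophages, 62% in B, 54% in T and 49% in endothelial cells. The simulated spread was the same in all lineages, so these shares do not rank the precision of the real comparisons.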

Other observations

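Oxidative phosphorylation genes had positive folds for 38 of 40 members in macrophages, 33 in T, 38 in B and 37 in endothelial cells, with medians of 0.16, 0.12, 0.25 and 0.20. The 3 calls were in macrophages, where 9.9% of all genes were called. Immediate early genes, which respond to tissue dissociation, had negative folds for 22 of 25 in T, 22 in B and 23 in endothelial cells, with no call. In macrophages 4 fell and 2 rose. Over all macrophage genes 5.64% rose and 4.26% fell. MHC class II genes had positive folds for 10 of 10 tested in endothelial cells, with a median of 0.94 and no call there, and their summed level there was 457 and 844 CPM in sham and 1877 and 968 CPM in irradiated libraries. In macrophages the class II genes H2-DMb2, H2-Oa and H2-DMb1 were called, at log2 folds of 1.30, 0.91 and 0.45.

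B cells of irradiated replicate 2 had a median of 4531 UMIs, against 2261 to 2641 in the other wild-type libraries. Plasma and germinal centre genes summed to 4102 CPM in them and to 507, 1351 and 516 CPM in sham replicates 1 and 2 and irradiated replicate 1.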
